A study of Homo sapiens with 26 samples.

Results

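The genes described are those of the lysosome: the acid hydrolases of its lumen, the proteins of its membrane, the subunits of the proton pump that acidifies it, and the TFEB family of transcription factors. A list of 48 genes was given by name, and a gene was a member when a probe set of the deposited table carried its symbol. Of these, 44 were measured among 17687 genes, each by a single probe set: 20 of 22 hydrolases, 10 of 11 membrane and transport proteins, 3 of 3 TFEB family members and 11 of 12 subunits of the vacuolar ATPase (V-ATPase). GLB1, NEU1, NPC2 and ATP6V0A1 were not analysed here. The rule uses gene names alone, but the list was drawn up with earlier results of these data known.

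Lysosomes are acidic compartments that degrade proteins, lipids, glycans and glycogen delivered by endocytosis and autophagy. The V-ATPase joins a V1 sector, which hydrolyses ATP outside the organelle, to a V0 sector, which carries protons across the membrane, and the hydrolases need the acidity it provides. TFEB, TFE3 and MITF bind E-boxes of the sequence CACGTG, often within the longer CLEAR element, in promoters of many lysosomal genes. MYC with its partner MAX binds the same E-box core.

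Gene expression was measured on 26 single-colour arrays of total RNA from 3 established human lung cancer cell lines, NCI-H1975 (H1975), A549 and NCI-H1299 (H1299), each given either vehicle or Omomyc. Omomyc is a miniprotein derived from the basic and leucine zipper region of MYC that binds MAX and E-boxes without activating transcription, and it was added to the culture medium at 12.8 µM after the cells had attached overnight. Phosphate-buffered saline (PBS) was the vehicle and the only control, so Omomyc itself and protein addition as such cannot be told apart, and the sources used here do not give the time of exposure. The vehicle groups held 4 H1975, 4 A549 and 5 H1299 arrays, and the Omomyc groups 5, 3 and 5. All groups were grown in the same medium with serum, and the labels call the arrays of a group biological replicas without saying whether cultures were separate, so p-values measure the spread between these arrays, which may be technical. In such bulk RNA, fewer cells that express a gene and less RNA per cell cannot be told apart.

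Values are deposited levels taken as log2, whose scaling is not fully known, so the size of every difference carries that limit. Levels of different genes are not compared because probe sets differ in brightness. A change is Omomyc minus PBS on the log2 scale with the standard error (SE) of the limma fit after ±, n is the number of arrays given above, and a gene was called where limma's moderated test gave p under 0.05 after Benjamini-Hochberg adjustment over all 17687 genes. The 23 background probe sets had means of 2.34 to 6.69, and 35 members had all 6 group means above the brightest of them, 8 had some and 1, TFEB, had none. Where a group mean lay below that probe set, at 6.69, the printed difference from it is the fitted value and not the size of a measured change. The arrays fell into 3 clusters by their overall distribution of values, called runs here although the labels do not name them, with array means of 7.08 to 7.12, 7.30 to 7.36 and 6.94 to 6.99. Each run held every line and treatment, except that run 3 held no A549 Omomyc array. The A549 label was checked with AKR1B10, which was at a mean of 17.10 in A549 PBS arrays against 3.75 in H1975 and 3.00 in H1299. The last 2 means lay below the brightest background probe set, so AKR1B10 does not tell H1975 from H1299. Of 5 epithelial markers in PBS arrays, 4 were called higher and 0 lower in H1975 than in H1299 (limma). Against A549, 1 was called higher and 3 lower in H1975, and all 5 were higher in A549 than in H1299. Among them, CDH1 was at 9.78 in A549 but at 3.93 in H1975 and 3.33 in H1299, both below the brightest background probe set. The macrophage markers PTPRC, CSF1R, CD163, MRC1 and MARCO had group means of 2.61 to 4.52 in all 6 groups, also below it, and 0 of 5 was called in any line.

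Promoter windows from RefSeq (GRCh38.p14), 250 bases before to 50 after the annotated start of transcription, were given for 30 of the 44 members. CACGTG, which reads the same on both strands, was in 11 of them (36.7%) against 10.8% of the 14250 measured genes with a window. The longer TCACGTG, searched on both strands and always containing the first motif, was in 10 (33.3%) against 5.82%. The 11 members with CACGTG were CTSA, CTSD, CTSF, GAA, CD63, CLN3, LAMP1, MCOLN1, ATP6V0B, ATP6V0D1 and ATP6V1G1, and of these ATP6V0D1 and ATP6V1G1 were called for a change with Omomyc, where 18.4% of all 17687 genes were called in at least 1 line. No relation between the motif and the calls was tested. The 100 bases before the start are printed 5′ to 3′ on the gene's strand with CACGTG in capitals, first for these 2 V-ATPase genes, then for MCOLN1, which was chosen after its matches were seen because it holds the motif at 2 positions. The last 3, of CTSL, SLC17A5 and GPNMB, are shown because these genes had some of the largest changes, and they hold no CACGTG.
ATP6V1G1, chr9:114587669-114587768, plus strand: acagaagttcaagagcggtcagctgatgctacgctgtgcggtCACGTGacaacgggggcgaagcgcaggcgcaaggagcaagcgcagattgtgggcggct
ATP6V0D1, chr16:67481158-67481257, minus strand: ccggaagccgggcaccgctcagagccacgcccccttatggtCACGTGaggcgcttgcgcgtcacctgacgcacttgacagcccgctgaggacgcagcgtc
MCOLN1, chr19:7522524-7522623, plus strand: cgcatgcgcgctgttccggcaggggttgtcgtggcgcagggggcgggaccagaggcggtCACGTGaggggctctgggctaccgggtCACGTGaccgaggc
CTSL, chr9:87726019-87726118, plus strand: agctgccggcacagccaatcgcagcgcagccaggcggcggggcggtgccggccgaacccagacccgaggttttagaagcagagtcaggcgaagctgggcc
SLC17A5, chr6:73653993-73654092, minus strand: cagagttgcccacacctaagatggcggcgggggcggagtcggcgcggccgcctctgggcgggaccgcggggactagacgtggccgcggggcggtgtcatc
GPNMB, chr7:23246675-23246774, plus strand: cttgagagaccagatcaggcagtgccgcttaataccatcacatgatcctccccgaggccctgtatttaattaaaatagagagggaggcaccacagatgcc
Counted from the start, the motif begins at position −58 in ATP6V1G1, at −59 in ATP6V0D1, and at −41 and −14 in MCOLN1. More than 1 match was also found in windows of CTSA, CTSF, GAA, CLN3, ATP6V0B and LAMP1, with 6 in LAMP1. A match describes the letters of the window and was not tested for binding. Only CACGTG and TCACGTG were searched for, so a stretch without them may still hold another sequence that the TFEB family binds. The windows of NPC1, CD68, SCARB2, LIPA, CTSC, CTSH and ATP6V1E1, which were also called, held no CACGTG, and no window was given for LAMP2, MANBA, ATP6V0E1 or ATP6V1B2.

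In vehicle, most of the lysosomal genes called between lines were lower in H1299 than in H1975 or A549, and the median gap was widest among the hydrolases. Against H1299, 27 of 44 members were higher in H1975 and 3 were lower, where 21.2% of all genes were higher and 20.8% lower. In A549, 27 members were higher than in H1299 and 4 were lower, against 19% and 22.5% of all genes. Both comparisons use the same 5 H1299 PBS arrays. Between H1975 and A549, 18 members were higher in H1975 and 8 in A549, against 20.3% and 18% of all genes. In all, 38.3% of genes were called between H1975 and A549, 42% between H1975 and H1299 and 41.5% between A549 and H1299. The lowest of the 3 PBS means lay in H1299 for 34 members, in A549 for 5 and in H1975 for 5. Some of these means lay below the brightest background probe set, and the same count over all genes is not given here.

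Among the hydrolases, 14 of 20 were higher in H1975 than in H1299 and 17 of 20 were higher in A549, with median differences of 2.05 and 2.02 on the log2 scale, where the median of all genes was −0.017 and −0.098. The median hydrolase difference between H1975 and A549 was 0.13, with 7 higher and 6 lower in H1975. Cathepsin Z (CTSZ), a lysosomal carboxypeptidase, had the widest fitted gap, with PBS levels of 14.40, 13.89, 13.36 and 14.12 in H1975, 13.79, 13.59, 12.86 and 13.35 in A549, and 7.45, 6.64, 6.39, 5.34 and 6.39 in H1299. Every H1299 array lay below every array of the other lines, and the H1299 mean of 6.44 lay below the brightest background probe set, so the size of the gap rests on a level that cannot be separated from background. The fitted difference was 7.50 ± 0.31 for H1975 minus H1299 (adjusted p = 3.98e-18) and 6.96 ± 0.31 for A549 minus H1299 (adjusted p = 1.75e-17), while H1975 and A549 differed by 0.54 ± 0.32 (adjusted p = 0.21, limma). Cathepsin H (CTSH), an aminopeptidase, was at 7.75, 7.00, 6.94 and 6.52 in H1975 and at 6.52, 5.89, 6.40 and 4.75 in A549. In H1299 it was at 2.77, 2.69, 2.16, 2.47 and 2.74. All A549 and H1299 arrays, and the lowest H1975 array, lay below the brightest background probe set. The gaps in CTSH between lines therefore rest on levels that cannot be separated from background.

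Cathepsin L (CTSL), a cysteine endopeptidase of broad specificity, was ordered differently, with A549 highest. Its PBS levels were 15.28, 15.68, 16.16 and 15.28 in A549, 13.20, 12.98, 12.59 and 12.79 in H1975, and 10.39, 11.06, 10.97, 10.81 and 10.30 in H1299. The 3 lines did not overlap. Cathepsin S (CTSS), a cysteine protease best known from antigen-presenting cells, was at 10.54, 10.12, 10.66 and 9.96 in A549, at 3.68, 4.75, 6.11 and 4.72 in H1975, and at 3.36, 3.17, 3.41, 4.46 and 3.90 in H1299. Only A549 was above the brightest background probe set, and H1975 minus A549 was −5.50 ± 0.37 (adjusted p = 3.40e-13, limma). The aspartic protease cathepsin D (CTSD) had means of 15.10 ± 0.12 (SD, n = 4) in H1975, 14.65 ± 0.31 (SD, n = 4) in A549 and 11.50 ± 0.33 (SD, n = 5) in H1299. H1975 and A549 differed in CTSD by 0.45 ± 0.20, which did not pass the threshold (adjusted p = 0.0776, limma). Acid lipase (LIPA), which frees cholesterol from its esters, was highest in H1975, with means of 14.68 ± 0.24, 12.58 ± 0.32 and 11.22 ± 0.27 (SD) in H1975, A549 and H1299. GUSB, the β-glucuronidase, was the hydrolase called higher in H1299, by 0.69 ± 0.21 over H1975 (adjusted p = 0.00898) and 0.66 ± 0.21 over A549 (adjusted p = 0.0128, limma), with overlapping arrays in both cases.

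The membrane proteins had no common order of the lines. GPNMB, a glycoprotein of lysosomes and melanosomes, had PBS levels of 11.77, 11.99, 11.69 and 12.09 in H1975, 4.98, 5.42, 5.79 and 7.13 in A549, and 5.95, 5.92, 5.58, 5.34 and 5.75 in H1299. The means of A549 and H1299, 5.83 and 5.71, lay below the brightest background probe set. H1975 lay above both other lines, by fitted differences of 6.06 ± 0.30 over A549 (adjusted p = 2.71e-16) and 6.18 ± 0.28 over H1299 (adjusted p = 4.62e-17, limma). CD68, a heavily glycosylated lysosomal membrane protein used as a macrophage marker, was instead low in A549. Its levels were 9.01, 9.44, 8.96 and 8.93 in A549, 12.96, 13.21, 12.63 and 12.62 in H1975, and 13.26, 13.70, 13.57, 13.22 and 12.97 in H1299. The macrophage markers named above were near background in each of these lines. NPC1, which exports cholesterol from lysosomes, was also lower in A549 than in H1975, by 1.83 ± 0.21 (adjusted p = 3.31e-08), and than in H1299, by 1.94 ± 0.20 (adjusted p = 3.70e-09, limma). The calcium channel MCOLN1 was higher in H1975 than in A549 by 2.14 ± 0.32 (adjusted p = 3.04e-06, limma) and than in H1299 by 2.44 ± 0.31 (adjusted p = 1.12e-07, limma). SLC17A5, or sialin, which carries sialic acid out of lysosomes, had PBS means of 6.30, 6.55 and 6.46 in H1975, A549 and H1299, all below the brightest background probe set, so its levels in the lines cannot be compared.

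Of the TFEB family, MITF had PBS levels of 10.29, 10.37, 10.50 and 10.40 in H1975, 9.05, 9.17, 8.79 and 8.79 in A549, and 5.11, 4.13, 2.65, 5.24 and 4.49 in H1299. The lines did not overlap, and the fitted gap between H1975 and H1299 was 6.07 ± 0.36 (adjusted p = 2.51e-14, limma), with the H1299 mean of 4.32 below the brightest background probe set. TFE3 had means of 9.99, 9.88 and 9.57 in H1975, A549 and H1299, and no pair passed the threshold. TFEB had means of 4.55, 3.22 and 3.03, all below the brightest background probe set, so its differences between lines can be read only with that limit. V-ATPase genes had smaller median differences than the hydrolases, 0.47 for H1975 minus H1299 and 0.50 for A549 minus H1299. ATP6V0E1, a small V0 subunit, was higher by 2.38 ± 0.18 in H1975 and 2.35 ± 0.18 in A549 than in H1299 (adjusted p = 6.33e-12 and 8.06e-12, limma). ATP6V1A, the catalytic V1 subunit, had means of 11.04, 10.94 and 10.57 in H1975, A549 and H1299 with no pair called.

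**Figure D1:**
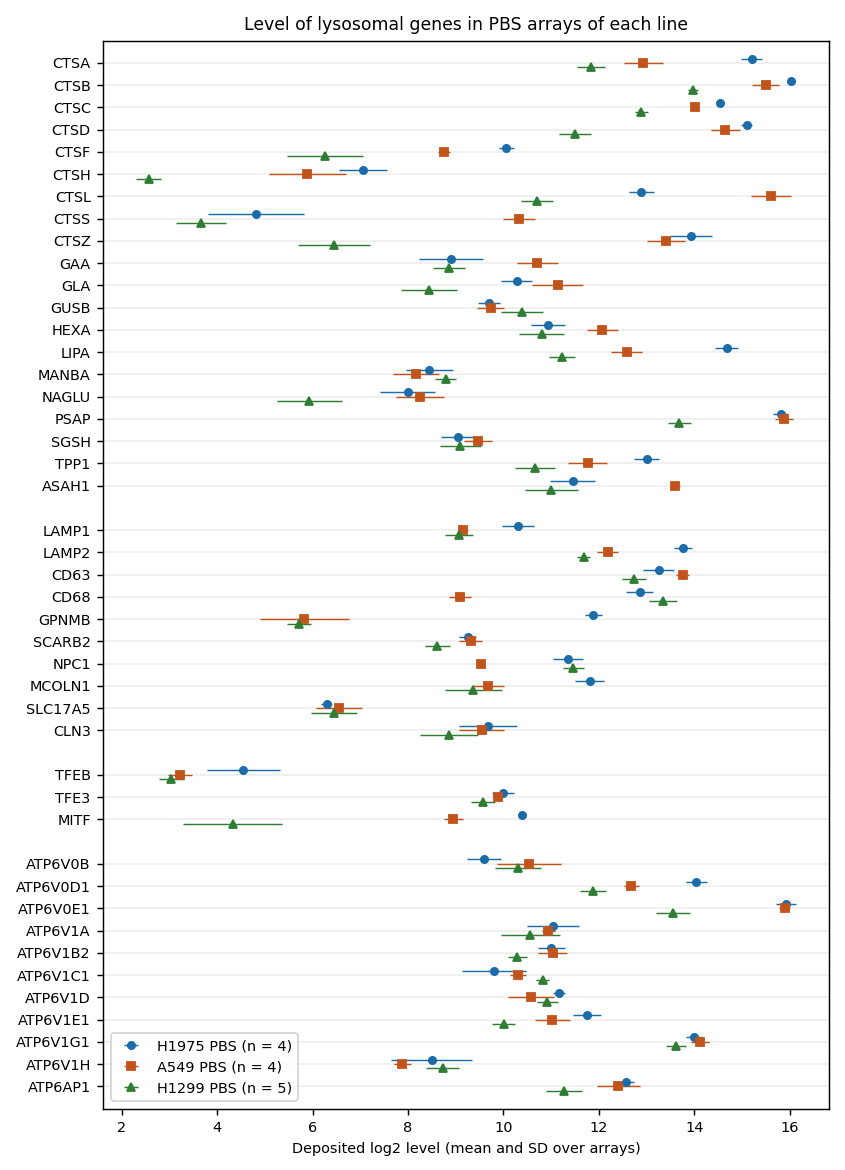
Deposited log2 level (horizontal axis) of each of the 44 lysosomal genes in PBS arrays, as the mean (marker) and SD (bar) over 4 H1975, 4 A549 and 5 H1299 arrays, grouped as hydrolases, membrane and transport proteins, TFEB family and V-ATPase from top to bottom. CTSZ, CTSD and MITF are far lower in H1299, GPNMB stands high in H1975 alone, CTSS in A549 alone, and CD68 is low in A549.

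With Omomyc, 16 of the 44 members were called in at least 1 line, mostly for a rise, where 18.4% of all genes were called in at least 1. The other 28 were called in none, which does not show that they did not change, and with the run as a block 26 members were called in at least 1 line, where 30.3% of all genes were. SLC17A5 rose in all 3 lines. CTSL, NPC1 and SCARB2 rose in H1975 and H1299, and the remaining 12 members were called in 1 line each. In H1975, 8 members rose and 1 fell, or 9 of 44, where 11.8% of all genes were called (5.57% higher and 6.28% lower). In H1299, 10 rose and 1 fell, or 11 of 44, where 8.87% of all genes were called (4.35% higher and 4.52% lower). In A549 only SLC17A5 was called, where 1.19% of all genes were (0.916% higher and 0.277% lower). The membrane and transport group had the most calls for its size, with 4 of 10 rising in H1975 and 5 of 10 in H1299. The median change of all 44 was 0.11 in H1975, 0.24 in A549 and 0.32 in H1299, beside medians of all genes of 0.0038, 0.042 and 0.0018. With each array centred on its own median, the H1975 median of all genes moved to 0.12 and that of the members to 0.23, and 9 members rose and 0 fell. With the run as a block, the A549 median of the members was 0.12, and 14 members were called in H1975, 4 in A549 and 19 in H1299, including each of those called without it, beside 19.2%, 2.84% and 15.9% of all genes.

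**Figure D2:**
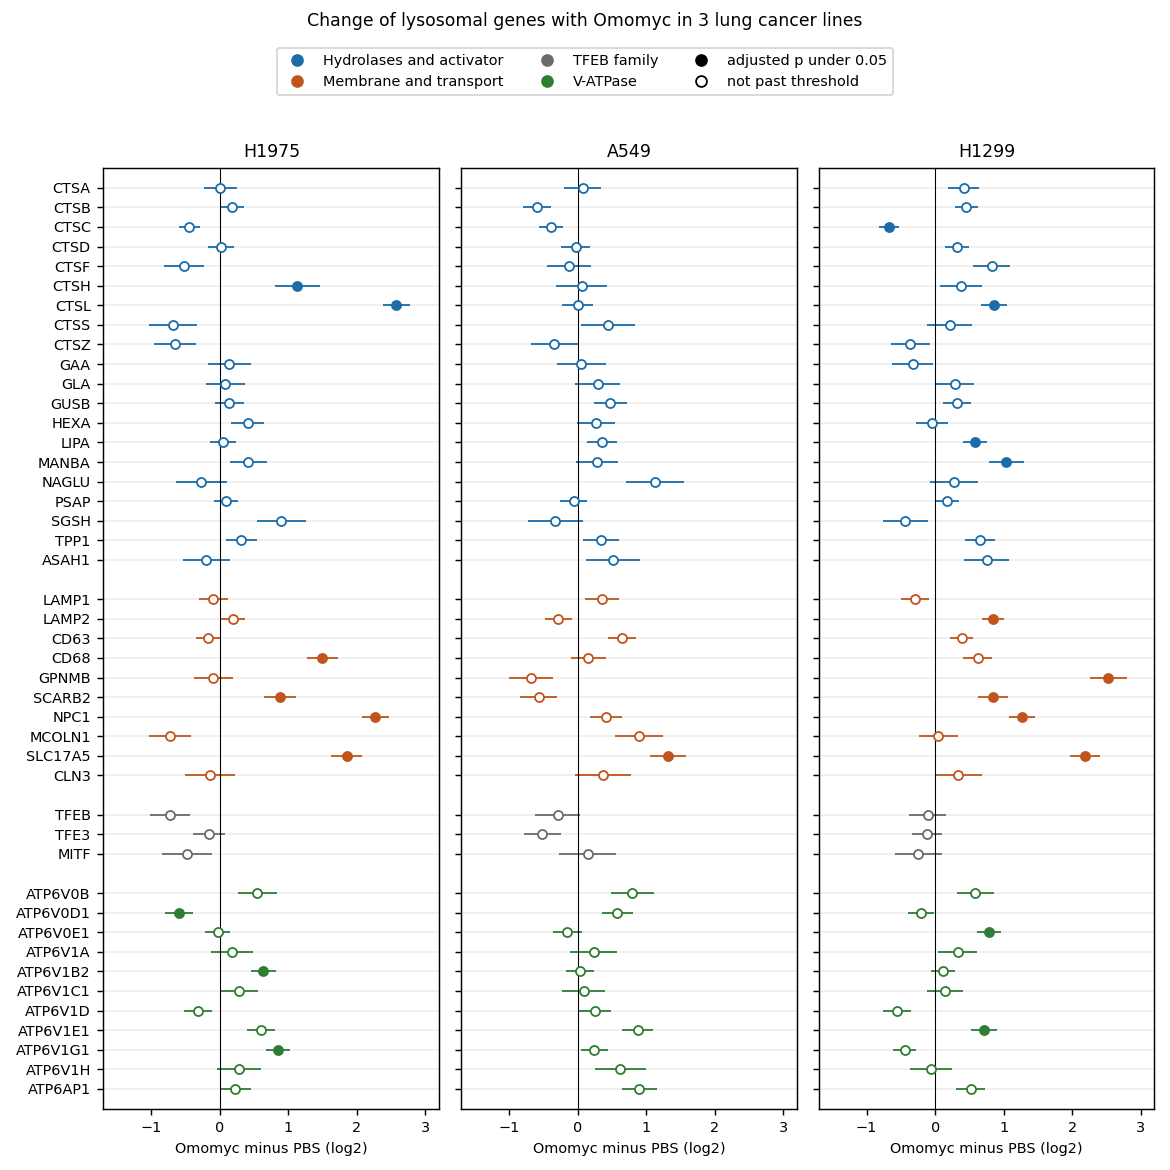
Change with Omomyc (Omomyc minus PBS, log2, horizontal axis) of the 44 lysosomal genes in H1975, A549 and H1299, with bars of 1 SE from the limma fit, filled where the adjusted p was under 0.05. CTSL and NPC1 have the largest changes in H1975, GPNMB and SLC17A5 in H1299, and SLC17A5 is the only filled marker in A549.

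Sialin (SLC17A5) was called in every line. In H1975 its PBS arrays were at 6.16, 6.25, 6.35 and 6.43 and its Omomyc arrays at 8.05, 8.19, 7.95, 8.35 and 8.19. In A549 they were at 7.07, 6.49, 6.74 and 5.91 against 7.75, 7.88 and 7.99. In H1299 they were at 5.92, 7.20, 6.58, 6.41 and 6.18 against 8.86, 8.87, 8.87, 8.28 and 8.32. Omomyc and PBS arrays did not overlap in any of the lines, and all treated arrays were above the brightest background probe set. The PBS means were below it in all 3 lines, so the size of each rise, and its comparison between lines, rests on levels that cannot be separated from background. The fitted rise was 1.85 ± 0.23 in H1975 (adjusted p = 1.99e-06), 1.32 ± 0.26 in A549 (adjusted p = 0.00577) and 2.18 ± 0.22 in H1299 (adjusted p = 1.05e-07, limma). Its rise was not called as different between lines, with differences of 0.53 ± 0.35 for H1975 minus A549 and −0.86 ± 0.34 for A549 minus H1299. Fitted on A549 arrays alone, the A549 rise had an adjusted p of 0.0796 (limma), and within the runs it was 1.03 in run 1 and 1.24 in run 2, the latter from 1 array against 1.

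Cholesterol export was represented by NPC1. Its levels in H1975 were 11.03, 11.38, 11.78 and 11.24 with PBS and 13.62, 14.24, 13.16, 13.60 and 13.53 with Omomyc. In H1299 they were 11.62, 11.53, 11.28, 11.70 and 11.19 against 12.90, 12.69, 12.68, 12.80 and 12.61. Both lines showed complete separation of the treatments. NPC1 rose by 2.27 ± 0.20 in H1975 (adjusted p = 6.17e-09) and by 1.27 ± 0.19 in H1299 (adjusted p = 4.60e-05, limma). In A549 the arrays were at 9.44, 9.65, 9.56 and 9.47 against 10.32, 9.88 and 9.63, with overlap between them, and the difference of 0.42 ± 0.23 did not pass (adjusted p = 0.682, limma). The rise in H1975 exceeded that in A549 by 1.85 ± 0.31 (adjusted p = 0.000319) and that in H1299 by 1.00 ± 0.28 (adjusted p = 0.0283, limma), the latter not called with the arrays centred (adjusted p = 0.072) or after quantile normalization (adjusted p = 0.0585).

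GPNMB rose only in H1299 among the 3 lines, and the difference between lines was itself called. Its H1299 arrays were at 5.95, 5.92, 5.58, 5.34 and 5.75 with PBS and at 8.25, 8.43, 8.54, 8.24 and 7.73 with Omomyc. The treated arrays lay above all vehicle arrays, and above the brightest background probe set, while the vehicle arrays lay below it. The rise was 2.53 ± 0.27 (adjusted p = 2.27e-07, limma). In H1975, where GPNMB was already high, it was at 11.61, 12.07, 11.63, 11.52 and 12.13 with Omomyc, overlapping its PBS arrays, with a difference of −0.10 ± 0.28. In A549 the Omomyc arrays were at 5.15, 4.94 and 5.35, overlapping the PBS arrays and below the brightest background probe set, with a difference of −0.68 ± 0.32 (adjusted p = 0.539, limma). The H1299 rise exceeded that in H1975 by 2.62 ± 0.39 (adjusted p = 4.15e-05) and that in A549 by 3.21 ± 0.42 (adjusted p = 2.39e-05, limma).

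CD68 rose in H1975. Its arrays were at 12.96, 13.21, 12.63 and 12.62 with PBS and 14.43, 14.18, 14.93, 14.04 and 14.16 with Omomyc. They did not overlap, and the rise was 1.49 ± 0.23 (adjusted p = 2.99e-05, limma). None of the 5 macrophage markers was called in H1975, and their median change was −0.094. All their group means lay below the brightest background probe set, so a change in them could be missed. In H1299 the CD68 arrays were at 13.26, 13.70, 13.57, 13.22 and 12.97 against 13.71, 14.08, 14.16, 13.95 and 13.91. These did not overlap either, but the difference of 0.62 ± 0.21 missed the threshold (adjusted p = 0.0696, limma) and passed it when runs were blocked (adjusted p = 0.0207). In A549 the difference was 0.16 ± 0.26, and the rise in H1975 exceeded it by 1.33 ± 0.34 (adjusted p = 0.0194, limma).

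SCARB2, also called LIMP-2, carries glucocerebrosidase to the lysosome. Its H1975 arrays were at 9.02, 9.45, 9.26 and 9.28 with PBS and 10.24, 10.27, 10.07, 10.57 and 9.49 with Omomyc. In H1299 they were at 8.42, 9.02, 8.73, 8.46 and 8.44 against 9.22, 10.10, 9.63, 9.15 and 9.16. Treated arrays lay above vehicle arrays in both lines, narrowly in H1975, where the lowest treated array was the one of run 3. The rises were 0.88 ± 0.23 (adjusted p = 0.0117) and 0.84 ± 0.22 (adjusted p = 0.0129, limma), and the H1299 call was lost without Omomyc replicate 2 (adjusted p = 0.0528). A549 arrays were at 9.59, 9.44, 9.10 and 9.12 against 8.80, 9.15 and 8.27, with overlap and a difference of −0.57 ± 0.27 (adjusted p = 0.527, limma). The A549 response lay below that of H1975 by 1.44 ± 0.35 (adjusted p = 0.014) and below that of H1299 by 1.41 ± 0.35 (adjusted p = 0.0239, limma).

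LAMP2, one of the abundant glycoproteins that line the lysosomal membrane, rose in H1299 from 11.54, 11.64, 11.66, 11.90 and 11.64 to 12.49, 12.50, 12.60, 12.58 and 12.42. The treated arrays were all higher and lay close together, with a rise of 0.84 ± 0.16 (adjusted p = 0.000973, limma). Its changes in H1975 and A549 were 0.19 ± 0.17 and −0.28 ± 0.20. LAMP1, its relative, had changes of −0.10 ± 0.21, 0.35 ± 0.24 and −0.29 ± 0.20 in H1975, A549 and H1299 and was called in no line. The tetraspanin CD63 had a change of 0.64 ± 0.20 in A549, where treated arrays of 14.54, 14.38 and 14.28 lay above vehicle arrays of 13.82, 13.67, 13.63 and 13.90, but it did not pass (adjusted p = 0.159, limma). For MCOLN1 the estimates had opposite signs, −0.73 ± 0.31 in H1975 and 0.89 ± 0.35 in A549 (adjusted p = 0.138 and 0.351, limma). With the run as a block, the H1975 estimate for MCOLN1 was −0.74 and passed (adjusted p = 0.00696, limma). CLN3, mutated in juvenile Batten disease, had estimates between −0.14 and 0.37 and was called nowhere.

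**Figure D3:**
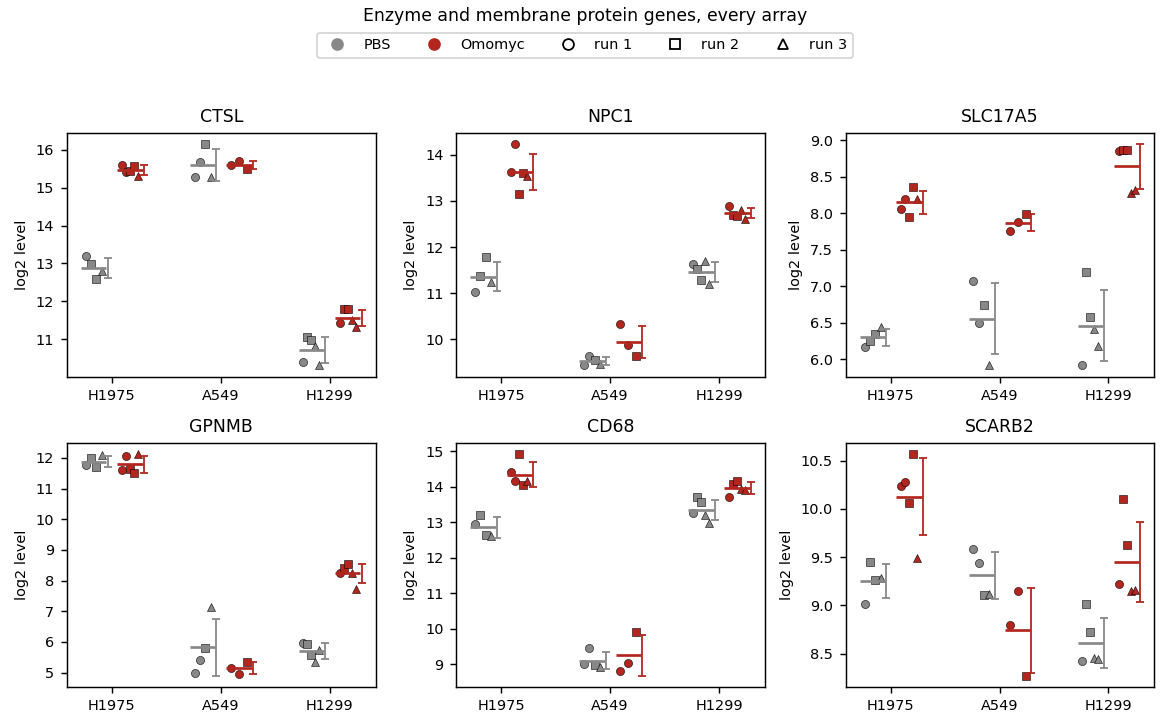
Deposited log2 level of CTSL, NPC1, SLC17A5, GPNMB, CD68 and SCARB2 on every array, PBS in grey and Omomyc in red, with the mean and SD of each group and the marker shape giving the run (circle, square and triangle for runs 1, 2 and 3). SLC17A5 is higher with Omomyc in all 3 lines, CTSL, NPC1 and SCARB2 in H1975 and H1299, CD68 most in H1975, and GPNMB in H1299.

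Of the 20 hydrolases, 2 rose in H1975 and 3 rose and 1 fell in H1299 (limma). In A549 0 passed, where 3 had an unadjusted p under 0.05 (limma), and the share of all genes at that unadjusted threshold is not given here. At the adjusted threshold, 11.8% of all genes were called in H1975, 8.87% in H1299 and 1.19% in A549. The largest change among the hydrolases was that of cathepsin L. CTSL arrays of H1975, at 13.20, 12.98, 12.59 and 12.79 with PBS, were at 15.60, 15.40, 15.45, 15.58 and 15.30 with Omomyc. In H1299 they went from 10.39, 11.06, 10.97, 10.81 and 10.30 to 11.42, 11.79, 11.78, 11.51 and 11.33. The treatments did not overlap in either line, and the rises were 2.58 ± 0.20 (adjusted p = 5.78e-10) and 0.86 ± 0.19 (adjusted p = 0.00344, limma). A549 already had CTSL at 15.28 to 16.16 with PBS, and its Omomyc arrays, at 15.59, 15.71 and 15.50, lay within that range, with a difference of −0.00023 ± 0.23. The H1975 rise exceeded that in A549 by 2.58 ± 0.31 (adjusted p = 3.72e-06) and that in H1299 by 1.72 ± 0.28 (adjusted p = 0.000165, limma), and the level of CTSL in treated H1975 cells reached the range of A549.

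Cathepsin H in H1975 was at 7.75, 7.00, 6.94 and 6.52 with PBS and at 8.32, 8.56, 8.48, 8.37 and 7.19 with Omomyc. The groups overlapped through the last of these, the treated array of run 3. CTSH rose by 1.13 ± 0.32 (adjusted p = 0.0196, limma), and leaving out PBS replicate 3, PBS replicate 4 or Omomyc replicate 2 ended the call (adjusted p of 0.0513, 0.0857 and 0.0544). Cathepsin C (CTSC), the dipeptidyl peptidase that activates serine proteases of immune cells, moved the other way. Its H1299 arrays were at 12.70, 12.85, 13.03, 12.85 and 13.00 with PBS and 12.15, 12.26, 12.38, 12.15 and 12.11 with Omomyc. Every treated array was lower, and CTSC fell by 0.68 on the log2 scale (SE 0.14, adjusted p = 0.00226, limma), which was not called with the arrays centred (adjusted p = 0.0541). In H1975 the treated arrays, at 13.93, 14.11, 14.23, 14.07 and 14.09, also lay below the vehicle arrays, at 14.55, 14.57, 14.42 and 14.59, with a difference of −0.45 ± 0.15 that missed the threshold (adjusted p = 0.0572) and passed when runs were blocked (adjusted p = 0.0323, limma). In A549 the difference was −0.38 ± 0.17 without overlap (adjusted p = 0.506, limma), but the highest treated and the lowest vehicle array nearly met, at 13.96 and 13.97.

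Acid lipase (LIPA) rose in H1299, from 10.86, 11.30, 11.54, 11.36 and 11.05 to 11.76, 12.08, 11.65, 11.85 and 11.66. The groups were separate but close, and the rise of 0.58 ± 0.18 (adjusted p = 0.0386, limma) was lost when 6 of the 10 H1299 arrays were left out in turn, namely PBS replicates 1, 2 and 5 and Omomyc replicates 1, 2 and 4, with adjusted p up to 0.12, and with the arrays centred (adjusted p = 0.0742). β-Mannosidase (MANBA), which trims mannose from N-glycans, was at 8.90, 8.78, 9.07, 8.75 and 8.47 with PBS and 10.15, 10.08, 10.10, 9.05 and 9.78 with Omomyc in H1299. A single treated array, of run 3, fell within the vehicle range, and the rise was 1.04 ± 0.25 (adjusted p = 0.00724, limma). Cathepsin F (CTSF) and tripeptidyl peptidase (TPP1) in H1299 were just outside the threshold, at 0.83 ± 0.27 (adjusted p = 0.0518) and 0.66 ± 0.22 (adjusted p = 0.0551, limma). The PBS mean of CTSF, 6.26, lay below the brightest background probe set. With the replicate number as a block both genes passed (adjusted p = 0.0147 and 0.0295, limma), as they did when runs were blocked (adjusted p = 0.0151 and 0.00534), and same-numbered H1299 arrays share a run.

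No further hydrolase passed the threshold in any line without a block. With the run as a block, ASAH1 (adjusted p = 0.00648) and CTSB (adjusted p = 0.044) also passed in H1299 with higher levels, and CTSZ in H1975 with lower ones (adjusted p = 0.0463, limma). In A549 the largest estimate was that of NAGLU, an enzyme of heparan sulfate breakdown, with PBS arrays at 8.31, 8.34, 8.79 and 7.57 and Omomyc arrays at 9.48, 8.95 and 9.74. They did not overlap, but the difference of 1.14 ± 0.42 did not pass (adjusted p = 0.306, limma) and was 0.87 with the run as a block, where it passed (adjusted p = 0.019). SGSH, another heparan sulfate enzyme, had 0.90 ± 0.35 in H1975 (adjusted p = 0.108, limma). Cathepsin B (CTSB) had estimates of 0.18 ± 0.18, −0.60 ± 0.20 and 0.46 ± 0.17 in H1975, A549 and H1299, and its response in A549 lay below that in H1299 by 1.05 ± 0.26 (adjusted p = 0.027, limma; 0.106 with the arrays centred). CTSD, the acid α-glucosidase GAA, the α-galactosidase GLA, the hexosaminidase subunit HEXA and the saposin precursor PSAP had estimates between −0.33 and 0.41 in the 3 lines. Acid ceramidase (ASAH1) had 0.75 ± 0.33 in H1299 (adjusted p = 0.187, limma). CTSZ was lower with Omomyc in all 3 lines by estimate, −0.66 ± 0.31, −0.34 ± 0.35 and −0.36 ± 0.29. It was not called in the fit of the deposited values without a block, and both H1299 means lay below the brightest background probe set.

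Of the V-ATPase subunits, 2 of 11 rose and 1 fell in H1975 and 2 rose in H1299 (limma). In A549 0 passed, where 4 had an unadjusted p under 0.05, all positive (limma). The share of all genes at that unadjusted threshold is not given here, so this count has no measure beside it. At the adjusted threshold, the shares of all genes called were 11.8% in H1975, 8.87% in H1299 and 1.19% in A549. ATP6V1G1, the G subunit of the V1 stator, had H1975 arrays at 13.79, 14.08, 13.92 and 14.16 with PBS and 14.93, 14.57, 14.81, 15.14 and 14.72 with Omomyc. Treated arrays were all higher, and the rise was 0.85 ± 0.18 (adjusted p = 0.00126, limma). In H1299 the arrays were at 13.38, 13.74, 13.81, 13.39 and 13.76 against 12.83, 13.40, 13.31, 13.04 and 13.28. There the estimate was opposite, −0.45 ± 0.17 with overlap by 1 treated array, not called (adjusted p = 0.0972) except when runs were blocked (adjusted p = 0.0367, limma), quantile normalization or the trend and robust settings. The responses of H1975 and H1299 differed by 1.29 ± 0.24 (adjusted p = 0.000813, limma). Its promoter window, printed above, holds CACGTG.

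ATP6V1B2, the nucleotide-binding B subunit, was at 10.93, 11.36, 11.04 and 10.69 with PBS and 11.72, 11.37, 11.65, 11.80 and 11.66 with Omomyc in H1975. The groups did not overlap, but the highest vehicle and the lowest treated array nearly met. It rose by 0.63 ± 0.18 (adjusted p = 0.02, limma), and the call was lost without PBS replicate 1 or 4 (adjusted p of 0.0522 and 0.0898). ATP6V0D1, the d subunit that couples the sectors, was at 14.32, 14.13, 13.80 and 13.93 against 13.40, 13.13, 13.97, 13.29 and 13.43. All but 1 treated array lay below the vehicle arrays, and ATP6V0D1 fell by 0.60 on the log2 scale (SE 0.20, adjusted p = 0.0471, limma). This was the weakest of the calls, lost when 7 of the 9 H1975 arrays were left out in turn (all but PBS replicate 3 and Omomyc replicate 3, with adjusted p up to 0.153), with the arrays centred (adjusted p = 0.163) and in the fit blocked on replicate number (adjusted p = 0.0753). In A549 ATP6V0D1 had an estimate of 0.58 ± 0.23 with treated arrays of 13.23, 13.11 and 13.44 above vehicle arrays of 12.65, 12.59, 12.91 and 12.57 (adjusted p = 0.351, limma), and the responses of H1975 and A549 differed by −1.18 ± 0.30 (adjusted p = 0.019, limma; 0.0665 with the arrays centred).

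In H1299, ATP6V0E1 rose from 13.16, 13.72, 13.78, 13.90 and 13.16 to 14.08, 14.54, 14.36, 14.33 and 14.38. All treated arrays were higher, and the rise was 0.79 ± 0.17 (adjusted p = 0.00286, limma). In H1975 and A549, where the vehicle level was higher, its changes were −0.03 ± 0.18 and −0.15 ± 0.21. ATP6V1E1, the E subunit of the stator, rose in H1299 from 9.74, 10.36, 10.01, 10.10 and 9.81 to 10.58, 10.72, 10.78, 10.97 and 10.54. The groups did not overlap, and the rise was 0.71 ± 0.19 (adjusted p = 0.0153, limma). Its estimates in H1975 and A549 were of like size, 0.59 ± 0.20 (adjusted p = 0.0551) and 0.88 ± 0.23 (adjusted p = 0.059, limma), both just outside the threshold and both past it when runs were blocked (adjusted p = 0.0267 and 0.0315). The accessory subunit ATP6AP1 had 0.90 ± 0.26 in A549 without overlap (adjusted p = 0.0941) and 0.52 ± 0.21 in H1299 (adjusted p = 0.151, limma), both past the threshold when runs were blocked (adjusted p = 0.0351 and 0.0359). ATP6V1D in H1299 had −0.56 ± 0.20 (adjusted p = 0.082), called with the replicate number as a block (adjusted p = 0.0353) and when runs were blocked (adjusted p = 0.0204, limma). ATP6V1A, ATP6V1C1 and ATP6V1H had estimates between −0.06 and 0.62 and were called in no line.

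**Figure D4:**
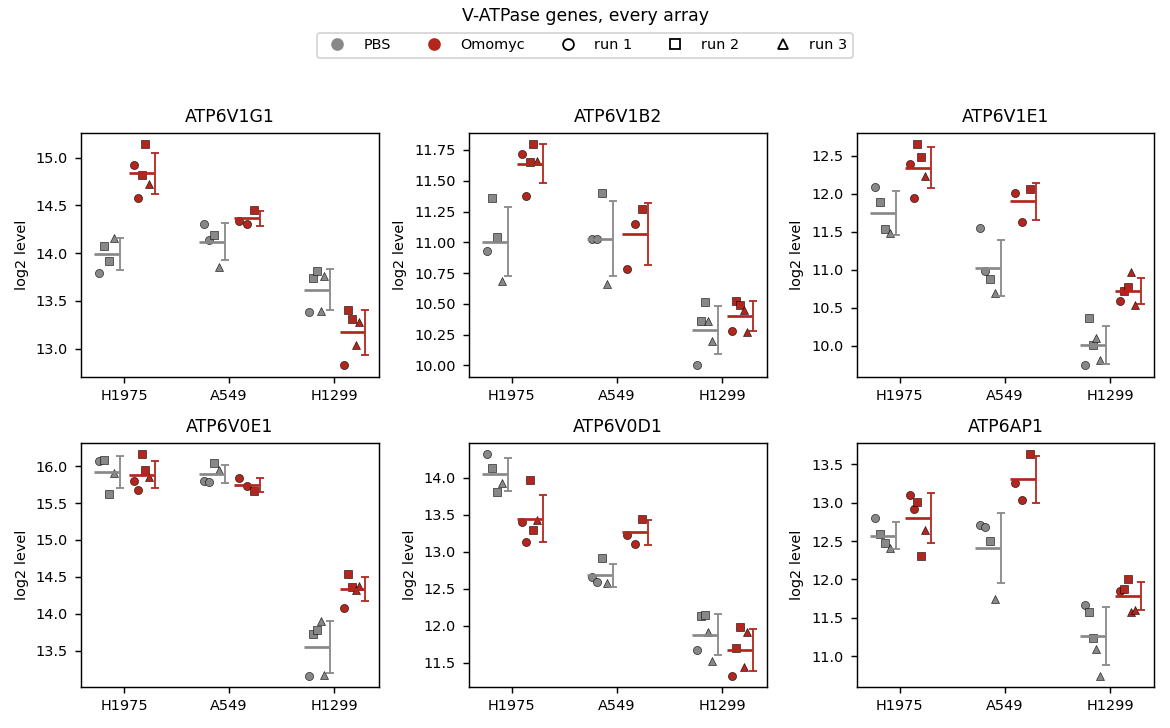
Deposited log2 level of 6 V-ATPase genes on every array, PBS in grey and Omomyc in red, with the mean and SD of each group and the marker shape giving the run. ATP6V1G1 is higher with Omomyc in H1975 and lower by estimate in H1299, ATP6V0D1 is lower in H1975, and ATP6V0E1 and ATP6V1E1 are higher in H1299.

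The TFEB family was called in no line, with 0 of 3 in each and 1 unadjusted p under 0.05, that of TFEB in H1975 (limma). The share of all genes at that unadjusted threshold is not given here. TFEB was at 4.55, 5.19, 5.00 and 3.46 with PBS and 4.38, 3.64, 3.84, 4.09 and 3.16 with Omomyc in H1975, all below the brightest background probe set. Its estimate was −0.73 ± 0.29 (adjusted p = 0.11), called when runs were blocked (adjusted p = 0.0202) and without PBS replicate 4 (adjusted p = 0.00661, limma). TFE3 had −0.16 ± 0.24, −0.52 ± 0.27 and −0.12 ± 0.22 in H1975, A549 and H1299. MITF was at 10.29, 10.37, 10.50 and 10.40 against 10.00, 10.12, 9.91, 10.01 and 9.48 in H1975, where every treated array was lower, with a difference of −0.49 ± 0.36 (adjusted p = 0.515, limma). In A549 and H1299 the MITF differences were 0.15 ± 0.42 and −0.24 ± 0.34, the latter between means below the brightest background probe set.

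Across the lines, the treatments did not overlap for 7 members higher and 2 lower with Omomyc in H1975 (5.18% and 5.35% of all genes), 11 higher and 1 lower in A549 (5.79% and 3.6%), and 11 higher and 2 lower in H1299 (3.91% and 4.09%). Of the 11 in A549, 6 were V-ATPase genes (ATP6V0B, ATP6V0D1, ATP6V1E1, ATP6V1G1, ATP6V1H and ATP6AP1). The estimates were positive in all 3 lines for 16 members, or 16 of 44 where 16.8% of all genes were so, and negative in all 3 for CTSC, CTSZ, TFEB and TFE3, where 13.5% were. Over the 44 members, the changes correlated with Pearson's r of 0.42 between H1975 and H1299, 0.099 between H1975 and A549 and 0.1 between A549 and H1299. Over all genes these were 0.24, 0.068 and 0.11, and the lines share no arrays but do share runs. The test for a response that differs among the lines called 10 of 44 members, CTSB, CTSL, LAMP2, CD68, GPNMB, SCARB2, NPC1, ATP6V0D1, ATP6V0E1 and ATP6V1G1, where 8.18% of all genes were called. With the arrays centred it called 8, and CTSB, LAMP2, ATP6V0D1 and ATP6V0E1 were no longer among them.

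Further genes of the same pathways were taken from lists by function. The counts of called genes in all these lists stand beside 11.8% of all genes called in H1975, 8.87% in H1299 and 1.19% in A549. These shares are at the adjusted threshold. For the counts at an unadjusted p under 0.05, the share of all genes is not given here. Of 25 other hydrolases, 1 rose and 4 fell in H1975, 3 rose and 1 fell in H1299 and 0 passed in A549 (limma), where 5 had an unadjusted p under 0.05. DNASE2, the acid nuclease, rose by 0.99 ± 0.22 in H1975 (adjusted p = 0.00247) and by 1.04 ± 0.21 in H1299 (adjusted p = 0.00112, limma). Arylsulfatase B (ARSB), which acts on dermatan sulfate, fell by a fitted 1.78 in H1975 (SE 0.19, adjusted p = 2.03e-07), to a mean of 6.58 that lay below the brightest background probe set, and by 0.81 in H1299 (SE 0.18, adjusted p = 0.00357, limma). Cathepsin O (CTSO) fell by 1.81 in H1975 (SE 0.30, adjusted p = 8.65e-05, limma), and the iduronate sulfatase IDS rose by 0.94 ± 0.18 in H1299 (adjusted p = 0.000885, limma).

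Of 17 other membrane and transport genes, 0 rose and 5 fell in H1975, 1 rose in A549, and 2 rose and 1 fell in H1299. HGSNAT, the acetyltransferase of heparan sulfate breakdown, fell by 1.28 in H1975 (SE 0.22, adjusted p = 0.0002, limma), and OSTM1, a partner of the chloride exchanger CLCN7, by 0.99 (SE 0.23, adjusted p = 0.00436, limma). LAMP3, a LAMP relative found in dendritic cells and lung, rose by 1.60 ± 0.34 in A549 (adjusted p = 0.00948, lost without Omomyc replicate 2 at 0.0529), from a mean of 5.09 to 6.68, both below the brightest background probe set, and fell by 1.67 in H1299 (SE 0.28, adjusted p = 0.000174, limma). LAPTM4A and the endolysosomal channel TPCN1 rose in H1299 by 0.94 ± 0.19 (adjusted p = 0.00105) and 0.87 ± 0.23 (adjusted p = 0.0142, limma). None of 10 other V-ATPase genes was called in any line, with an unadjusted p under 0.05 for 1 in H1975, 0 in A549 and 1 in H1299 (limma).

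Of 14 genes that deliver enzymes to lysosomes, 1 rose and 1 fell in H1975 and 1 rose in H1299, with 0 called in A549 (2 at an unadjusted p under 0.05, limma). VPS11, of the tethering complexes of endosomes and lysosomes, rose by 1.19 ± 0.27 in H1975 (adjusted p = 0.00261) and 0.84 ± 0.25 in H1299 (adjusted p = 0.0315, limma), the latter lost when PBS replicate 1, 4 or 5 or Omomyc replicate 3, 4 or 5 was left out (adjusted p up to 0.115). GGA2, a sorting adaptor of the Golgi, fell by 0.82 in H1975 (SE 0.23, adjusted p = 0.0194, limma), lost without PBS replicate 2 or Omomyc replicate 2 or 5 (adjusted p up to 0.066). Of 17 genes that control TFEB, 4 rose in H1975 and 2 in H1299, 0 fell in either, and 0 were called in A549 (3 at an unadjusted p under 0.05, limma). The folliculin partner FNIP2 rose by 3.19 ± 0.31 in H1975 (adjusted p = 2.66e-08, limma). The GTPase RRAGD, which recruits mTORC1 and TFEB to lysosomes, rose by 2.10 ± 0.23 in H1975 (adjusted p = 2.75e-07), from a mean of 4.20 to 6.30, both below the brightest background probe set, and by 1.39 ± 0.22 in H1299 (adjusted p = 8.29e-05, limma), from 9.83 to 11.22. Folliculin (FLCN) rose by 0.98 ± 0.30 in H1299 (adjusted p = 0.0336, limma), lost without PBS replicate 4 or 5 or Omomyc replicate 2 or 3 (adjusted p up to 0.127).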

How the data were processed

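Total RNA of 26 samples was biotin-labelled and read on arrays. The values deposited by the authors were taken as log2 expression levels. The submitters' processing notes name RMA and Partek without a version, and the sources used here give no genome build and do not say whether all arrays were normalized together. The table held 24351 features with values of 1.35 to 19.91, a wider span than RMA usually gives. Whether a further scaling step was applied could not be settled from the files, and such a step would change the size of every log2 difference. Of these, 17709 carried 1 gene symbol and 6642 none, giving 17687 genes, and the probe set with the highest mean stood for a gene. A model with a mean for each group and no block was fitted over the 26 arrays (lmFit and eBayes of limma 3.58.1, R 4.3.3, statmod 1.5.0). Tested were the Omomyc effect in every line, the differences between lines in vehicle, and the differences between the responses, singly and by F test. The number of arrays limits the precision.

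The members and lists were chosen with earlier results of these data known. Every member could be named, array values were given for members called in at least 1 line, and from each other list up to 2 called genes that rose and 2 that fell per line, with the smallest p, were named. Array values of other members, and the MCOLN1 promoter, were chosen after their values were seen. Pairing of same-numbered arrays was checked through their deviations from the group means. These correlated at 0.26 to 0.39 in H1299 and 0.11 to 0.20 in A549, over 0.1 for each pair, and at −0.20 to 0.33 in H1975. After the run means were taken out, the values for H1299, A549 and H1975 were −0.15 to 0.046, −0.19 to 0.0083 and −0.26 to 0.082. All same-numbered arrays of H1299 and A549 share a run, so the number and the run cannot be told apart there. Runs were found by average linkage of the sorted values of each array. The fit was tested on simulated data for 17687 genes, with 100 genes changed at each size. At a log2 change of 2 it found 98% of them in H1975, 90% in A549 and 96% in H1299. At a log2 change of 1 it found 46%, 40% and 53%, and false calls numbered 6, 4 and 8. The simulated noise was independent between genes and arrays, had no shift between runs, and only rises were simulated. These shares and false calls may therefore differ in the real arrays, which do have runs. Alternatives were quantile normalization, median centring, a filter that dropped the dimmest 30% of genes, the mean of probe sets, trend and robust settings, single runs and single lines, a block for the run, for the replicate number or for both, and leaving out each array.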

Additional observations from a re-analysis of the deposited data

Results flagged for a closer look

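In single groups, 6 arrays stood apart from the others of their group by Dixon's criterion, among 220 groups tested, where chance gives about 1 in 20. CTSH was at 7.19 on H1975 Omomyc replicate 5, which belongs to run 3, and at 8.32 to 8.56 on the other treated arrays. MCOLN1 was at 11.66 on H1975 Omomyc replicate 3 and at 10.84 to 11.04 on the others. In H1299 with Omomyc, CTSS was at 3.37 on replicate 1 against 3.95 to 4.04, all near background, and ATP6V0B was at 11.58 on replicate 3 against 10.68 to 10.81. In A549 with PBS, replicate 2 was apart for CD68, at 9.44 against 8.93 to 9.01, and for ATP6V1C1, at 10.05 against 10.37 to 10.39.

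The response to Omomyc differed among the 3 lines for 10 members in limma's moderated F test of the interaction. The adjusted p was 3.51e-06 for CTSL, 4.12e-06 for GPNMB, 0.000546 for NPC1 and 0.00223 for ATP6V1G1, and these held when any array was left out. It was 0.0135 for LAMP2, which held when any array was left out but not with the arrays centred (0.0978) or with the run and the replicate blocked (0.0508), and 0.0101 for SCARB2, which did not hold without A549 Omomyc replicate 3 (0.0603). CTSB was at 0.0262 and lost without A549 PBS replicate 2 or 3 or A549 Omomyc replicate 3 (up to 0.128). CD68 was at 0.0268 and lost without H1975 PBS replicate 3 or 4, H1975 Omomyc replicate 3, A549 PBS replicate 2, or A549 Omomyc replicate 1 or 2 (up to 0.0719). ATP6V0E1 was at 0.0297 and lost without H1299 PBS replicate 1 or 5 or H1299 Omomyc replicate 2 or 5 (up to 0.0701). ATP6V0D1 was at 0.0316 and lost without any of 8 arrays, H1975 PBS replicates 1 and 2, H1975 Omomyc replicate 2, A549 PBS replicates 1, 2 and 4 and A549 Omomyc replicates 1 and 3 (up to 0.0936). With the replicate block, ATP6V0D1 (0.0746) and ATP6V0E1 (0.063) were not called. With the arrays centred, CTSB (0.106), ATP6V0D1 (0.107) and ATP6V0E1 (0.0902) were not called either.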

How the results depend on the processing

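No call of a member turned its direction under the alternatives run. Members called with Omomyc numbered 9 in H1975, 1 in A549 and 11 in H1299. With the run as a block they numbered 14, 4 and 19, and the calls made without it were all among them. Within single runs an arm held 1 or 2 arrays, 1 against 1 for A549 in run 2, H1299 in run 1 and H1975 in run 3, where a lone array is assumed to vary like the other groups of its run. In these fits H1975 had 5 in run 1 and 4 in run 3, A549 had 0 in run 1 and 0 in run 2, and H1299 had 2, 3 and 5 in runs 1, 2 and 3. Quantile normalization gave 2 in A549 and 18 in H1299, and centring gave 2 in A549. In A549, trend and robust settings gave 2, the fit on that line alone 0, and the run with the replicate block 2. The run with the replicate block gave 6 in H1975, all up, and 15 in H1299. Fits on H1975 alone and on H1299 alone gave 7 and 10. The replicate block alone gave 9, 1 and 14, and 11 for the test of differing responses, against 10. Of those 10, centring kept 6, the replicate block 8 and the run with the replicate block 7. That test called 0 members in run 1 alone and 2 in run 2 alone, and could not be fitted in run 3, which lacks treated A549 arrays, as could no A549 change. Leaving out each array gave 7 to 9 in H1975, 1 to 2 in A549, 10 to 13 in H1299 and 7 to 11 for differing responses. PBS counts stayed within 1.5 times of 26, 30 and 31 under every alternative. The direction of calls was 8 up and 1 down in H1975, 8 and 3 after quantile normalization. The median of hydrolases in A549, 0.066, was −0.049 in run 2 alone, from 1 array against 1, and that of the TFEB family in H1299, −0.12, was 0.028 and 0.016 in runs 1 and 2 alone. Centring moved the all-gene median of H1975 minus A549 in PBS from 0.07 to −0.06 and of H1975 minus H1299 from −0.017 to −0.18. The median V-ATPase difference for H1975 minus A549, 0.099, became −0.031, and that of hydrolases, 0.13, became −0.0037. The cause of these differences between settings was not tested. Levels under 6.69 cannot be separated from background.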
